A study of Mus musculus with 2 samples.

Results

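Mitochondrial ribosomal protein genes were taken as the protein-coding genes on chromosomes 1 to 19 of the GENCODE M21 annotation whose symbols start with Mrpl or Mrps followed by a digit. There were 78 such genes among 20807 protein-coding genes, 51 for proteins of the large subunit and 26 for proteins of the small subunit. The remaining gene, Mrps36, keeps its ribosomal symbol although its product is now known as part of the 2-oxoglutarate dehydrogenase complex. CTCF binding was mapped by ChIP-seq in livers of B6NCrl mice (postnatal, age 0 day), with no treatment and no second group. The 2 replicates came from pulverized livers pooled from more than 1 dissection. Their biosample and donor labels are the same, so differences between the replicates may be technical only. Sex was not collected, and the control experiment that the labels name was not analysed here. ChIP-seq gives no RNA level, so the liver label could not be set against marker genes.

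Mitochondria carry their own genome, which encodes core subunits of the respiratory chain, and a ribosome of their own translates its mRNAs. The RNAs of this mitoribosome are made in the mitochondrion, whereas all of its proteins are encoded by nuclear genes, translated in the cytosol and imported. Some of these proteins have a counterpart in bacterial ribosomes and others are found only in mitochondria. CTCF, a protein with many zinc fingers, recognises an asymmetric DNA element and shapes chromatin loops with cohesin. It also binds many promoters. Nuclear genes for mitochondrial proteins often have CpG-rich promoters with sites for NRF1 and ETS-family factors, and many lie head to head with another gene.

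The peak lists were searched for the 14-base CTCF core, here called the core, within 50 bp of each summit. The windows printed below carry the core in capitals with 8 flanking bases on each side, read 5′ to 3′ on the strand of the core in mm10. The first 3 lie at the members with the strongest peaks, and each was at most 2 mismatches from the core.

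Mrps33, chr6:39811013-39811042, minus strand: gagcgcggCCGCTAGGTGTCGCccgaggtc

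Mrpl34, chr8:71464779-71464808, minus strand: caaaatgaCCAGGAGAGGGCGAacgaatgt

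Mrpl17, chr7:105811247-105811276, minus strand: agagaaacCCGGCAGGGGGCGCcgagatcc

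The next are Mrpl11, whose promoter is not CpG-rich, and Mrps18b, whose core lies beside a divergent neighbour.

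Mrpl11, chr19:4962001-4962030, plus strand: cactgtgtCCAGCAGATGGCAAcccagaac

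Mrps18b, chr17:35916338-35916367, plus strand: agcgtgtgCCGCAAGGGGGCAGccatcttg

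The last set lies under weak peaks, to show that a close match to the core also occurred there.

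Mrpl28, chr17:26122890-26122919, minus strand: cagttgatCCAGTAGGGGTCAGcctcatcc

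Mrps27, chr13:99344680-99344709, minus strand: gcccgggtCCCGCAGATGGTGCagcccggc

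CTCF peaks lay at the 5′ ends of 32 of the 78 members, or 41.0% (exact 95% interval 30.0 to 52.7%). The share over all protein-coding genes was 29.2%, or 6074 of 20807. A peak was counted when its summit, in the authors' optimal list of 57220 peaks, lay within 1 kb of the gene's 5′ end. The 32 members had 32 different peaks as their strongest, so no peak served more than 1 member. Mrpl20, Mrpl34, Mrpl39, Mrps12 and Mrps26 each had a second, weaker peak, which brought the total to 37.

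Most members have a CpG-rich promoter, and within that class their share was close to that of other genes. A promoter was called CpG-rich at a GC content of at least 50% and a ratio of observed to expected CpG of at least 0.6 within 500 bp of the 5′ end. By this rule 62 of the 78 members (79.5%) were CpG-rich. Of these, 27 had a peak (43.5%, exact 95% interval 31.0 to 56.7%), beside 46.0% of the 9449 other CpG-rich genes. The difference was -2.41 percentage points with a 95% interval from -14.1 to 9.99, so a gap in either direction within those bounds could not be told from none. The 2 sets were not alike in base composition. The median GC content was 57.3% in the CpG-rich members and 61.4% in the other CpG-rich genes.

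Among the 16 members without a CpG-rich promoter, 5 had a peak (31.3%, exact 95% interval 11.0 to 58.7%), beside 15.1% of the 11280 other such genes. The members were Mrpl11, Mrpl23, Mrpl20, Mrpl33 and Mrpl1. The 2 sets were not alike here either. The median ratio of observed to expected CpG was 0.548 in the 16 members and 0.242 in the 11280 other genes. Intervals on shares cover counting error over genes only.

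**Figure D1:**
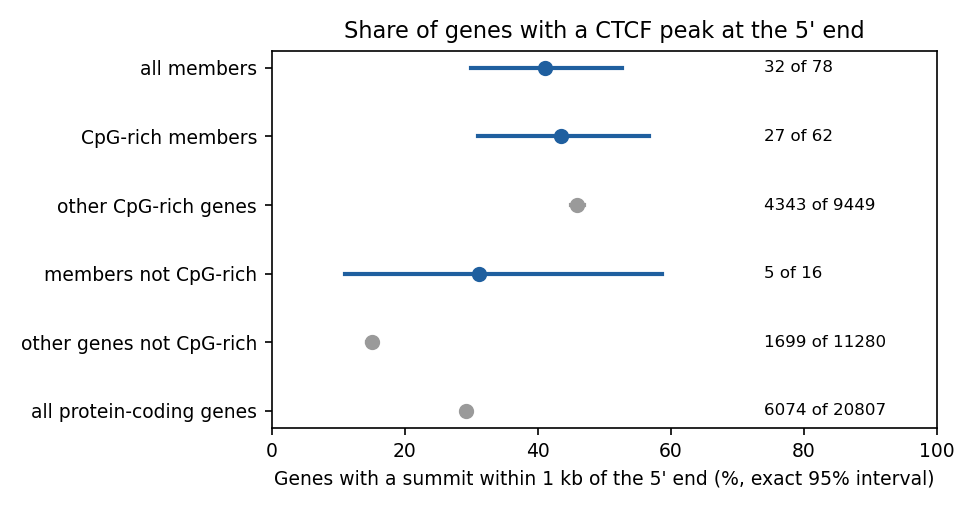
Percent of genes with a CTCF summit within 1 kb of the 5′ end (horizontal axis, 0 to 100%), for members (blue) and for other genes (grey). Lines are exact 95% intervals, and the counts stand at the right. The interval of the CpG-rich members, 31.0 to 56.7%, takes in the 46.0% of the other CpG-rich genes.

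The signals of the members' peaks were spread over most of the range of the optimal list. The signal is the value the authors deposited for each peak, on a scale that is not stated, so it ranks peaks within a list. It ran from 9.84 at Mrpl37 to 500.1 at Mrps33 with a median of 57.6, beside 71.2 over the whole optimal list. The 27 CpG-rich members had a median of 39.0, beside 56.1 at other CpG-rich genes. No member lay between Mrps26 at 88.0 and Mrps28 at 180.2. A gap of nearly that ratio lay between Mrps25 at 39.0 and Mrpl20 at 76.2. The 13 members at 100 or more made up 40.6% of the member peaks. Of the other CpG-rich genes with a peak, 36.1% had their strongest peak at 100 or more.

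The strongest member peak was that of Mrps33, which encodes a small-subunit protein found only in mitochondria. It lay at chr6:39810858-39811183 with its summit 38 bp upstream of the gene, in intergenic sequence. Its signal was 500.1 in the optimal list, 261.2 in replicate 1 and 239.4 in replicate 2, and it ranked 226 among the 57220 peaks. Mrpl34, for a large-subunit protein with a bacterial counterpart, had a signal of 489.9 with 254.6 and 236.2 in the replicates, at chr8:71464565-71464960. Mrpl17, also of the large subunit, had 451.1 with 229.7 and 223.1, at chr7:105811104-105811411. In the replicate lists these peaks stood far above most member peaks, and the 2 replicates gave nearly the same value for each.

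Several of the other strong peaks belonged to proteins of the small subunit with a bacterial counterpart. Mrps16 had a signal of 434.8 (219.0 and 220.1 in the replicates), with its summit in its own 5′ UTR 63 bp downstream of the 5′ end, at chr14:20393424-20393723. Mrps12, whose product helps to form the decoding centre, had 399.4 (209.3 and 189.0), at chr7:28742102-28742389. Mrps14 had 367.6 (180.9 and 185.5), at chr1:160194849-160195119. Mrps2 had 295.8 (157.3 and 137.7), at chr2:28467901-28468147. The summits of Mrps14 and Mrps2 were intergenic, 237 and 47 bp upstream, whereas that of Mrps12 fell in the coding sequence of its neighbour Sars2.

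The large subunit contributed the rest of the top 10. Mrpl11, whose product sits at the base of the stalk where translation factors dock, had 391.2 (199.1 and 191.7), at chr19:4961895-4962168. Mrpl39 had 336.9 (165.8 and 171.2), at chr16:84735212-84735483, and Mrpl38 had 319.8 (163.7 and 157.2), at chr11:116138913-116139175. Both of these proteins are found only in mitochondria. The Mrpl39 summit lay 400 bp downstream in its own 5′ UTR, while those of Mrpl11 and Mrpl38 were intergenic, 113 and 178 bp upstream.

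Mrpl23, whose product lines the exit of the peptide tunnel, neighbours the imprinted domain of H19 and Igf2. Its peak had a signal of 274.2 (152.9 and 121.6 in the replicates) at chr7:142533009-142533252, 439 bp downstream of the 5′ end in its own 5′ UTR. The best match to the core there had 3 mismatches, so it was not counted as a core. Of the other members without a CpG-rich promoter, Mrpl20 had a signal of 76.2 (42.2 and 34.2), Mrpl33 had 35.5 (15.3 and 21.3), and Mrpl1, for the protein of the movable L1 stalk, had 19.1 with no matching peak in replicate 2.

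The weakest peaks were at genes of the large subunit. Mrpl37 had a signal of 9.84, and its 5.43 and 2.77 in the replicates ranked only 79341 and 233285 in lists of 300000. Mrpl48 had 10.6 (5.97 and 7.85), and Mrpl57 had 12.1 (6.05 and 6.24). Mrpl30 had 12.8 with no matching peak in replicate 2, and Mrpl44, whose product has an RNase III fold, had 14.5 with none in replicate 1. Mrps34 (15.4) and Mrps27 (16.0) followed, both of the small subunit and found only in mitochondria. Of these 7 peaks, the 5 at Mrpl37, Mrpl48, Mrpl44, Mrps34 and Mrps27 were not in the authors' conservative list. It held the peaks of the other 27 members (84.4%). The share was 84.5% over all protein-coding genes with a peak and 83.5% at other CpG-rich genes. By the 1 kb rule that list had a peak at 31 of the 78 members, some with none in the optimal list.

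The replicate lists held all of the stronger peaks, and some of the weaker ones had no match in a replicate. Peaks in both replicate lists within 100 bp of the summit were found for 28 of the 32 members (87.5%). The share was 93.9% over all protein-coding genes with a peak and 93.2% at other CpG-rich genes. Both lists held such a peak for all 16 members above the median signal of the optimal list. Over those 16, the ratio of replicate 1 to replicate 2 ran from 0.962 to 1.26. Over the 28 it ran from 0.555 to 1.99 with a median of 1.04, the same as the median over all matched peaks. The replicates were also close at some weak peaks, such as Mrpl57. The 4 without a match in a replicate were Mrpl1, Mrpl30, Mrpl44 and Mrpl49.

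**Figure D2:**
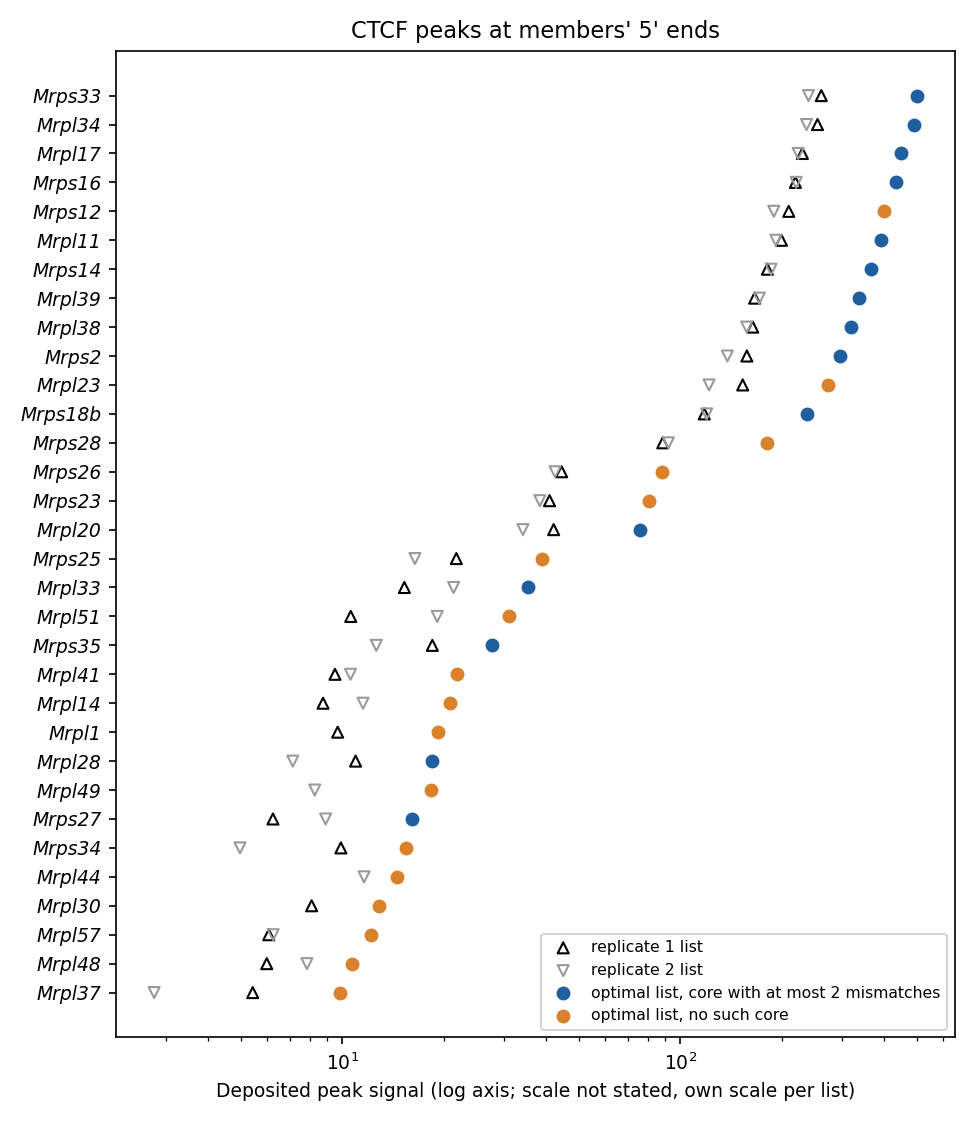
Deposited signal (horizontal log axis) of the strongest peak within 1 kb of the 5′ end of each of the 32 members, ordered by the optimal list. Circles are the optimal list, coloured by the presence of the core, and triangles are the replicate lists, each on its own scale. The triangles of the strongest members nearly coincide, and among the 16 members below the 71.2 of the median optimal peak some lie apart or are missing.

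Member peaks with the core were mostly strong and those without it mostly weak. Of the 32 member peaks, 15 had a core with at most 2 mismatches no farther than 50 bp from the summit. This was 46.9% (exact 95% interval 29.1 to 65.3%), beside 71.2% of all optimal peaks on chromosomes 1 to 19. The share was 44.4% at CpG-rich members, 38.2% at other CpG-rich genes and 42.9% over all protein-coding genes with a peak. In windows displaced by 1 kb, 2 of the 32 had such a core. The 15 peaks with the core had a median signal of 319.8 and the 17 without had 20.8. At other CpG-rich genes these medians were 140.9 and 37.9. The 2 sets of member peaks overlapped: the weakest with the core was Mrps27 at 16.0, and the strongest without was Mrps12 at 399.4.

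The closeness of the match was like that at other genes. No member peak had a core without mismatch, beside 1.73% of other CpG-rich genes with a peak, and 4 (12.5%) were 1 mismatch away, beside 11.4%. These 4 were Mrpl17, Mrpl11, Mrpl38 and Mrpl28, and the peaks of the first 3 were among the 10 strongest, whereas Mrpl28, printed above, had a signal of 18.4. The core was on the strand of the gene in 8 of the 15 cases.

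Member peaks lay mostly upstream of the gene. The summit was upstream at 23 of the 32 members (71.9%), beside 54.6% over all protein-coding genes with a peak. Among CpG-rich members it was upstream at 20 of 27 (74.1%), beside 55.2% at other CpG-rich genes. No interval was computed for these shares. The median distance over the 32 members was 177 bp. By the annotation 13 summits were intergenic, 7 intronic, 7 in a 5′ UTR, 4 in coding sequence and 1 in a 3′ UTR. Several of these features belonged to the neighbour, not the member. The 3′ UTR, for example, was that of Tmem8, 610 bp upstream of Mrpl28.

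**Figure D3:**
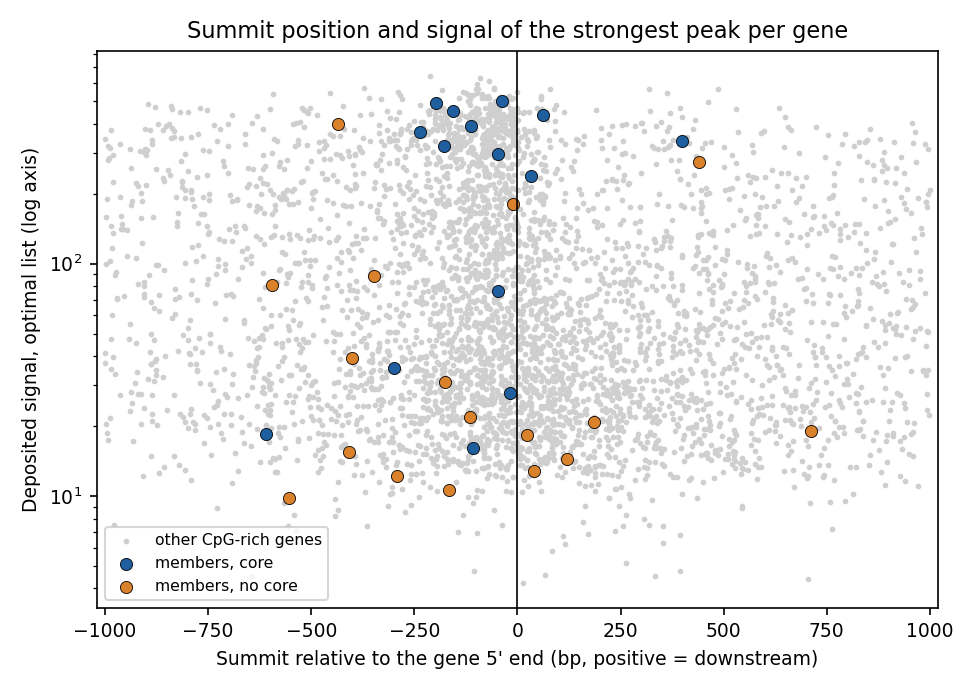
Position of the strongest summit relative to the gene's 5′ end (horizontal axis, bp, positive is downstream) against its deposited signal (vertical log axis). Large points are members, with the core in blue and without it in orange, and grey points are other CpG-rich genes. Of the 32 member summits, 23 lie left of the line.

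The members nearest to the 1 kb limit had both weak and strong peaks. Just inside it were Mrpl1 at 712 bp, Mrpl28 at 610 bp and Mrps23, with a signal of 80.8, at 596 bp. Just outside were Mrpl40 at 1085 bp with a signal of 121.5, Mrpl53 at 1276 bp with 414.5 and Mrpl50 at 1407 bp with 69.1. The Mrpl53 signal lay between those of Mrps16 and Mrps12. The median distance to the nearest summit was 1.99 kb over the 78 members and 5.33 kb over all protein-coding genes. It was 1.84 kb over the CpG-rich members and 1.45 kb over other CpG-rich genes. Mrps9 was the farthest, at 62.6 kb.

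Weak calls were common at the 46 members without a peak. In the pooled list, which holds 300000 peaks and many weak ones, 40 of the 46 (87.0%) had a call within 1 kb. This stood beside 79.3% of other CpG-rich genes without a peak. The sets are not alike, because some of the 46 members are not CpG-rich. The share over all protein-coding genes was not counted. The signals of the calls at the 40 members had a median of 9.75 and reached 26.6, which overlaps the weakest peaks of the optimal list. At this level a peak and its absence are close to each other, and the depth of the libraries is unknown.

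Many members lay head to head with another coding gene, and the share was above that of other CpG-rich genes. A divergent partner, a coding gene on the other strand with its 5′ end within 1 kb upstream, was found for 18 of the 78 members (23.1%). All 18 were CpG-rich, which is 29.0% of the CpG-rich members, beside 12.6% of other CpG-rich genes. The distance between the 5′ ends had a median of 82 bp and ran from 26 to 935 bp. A further 15 members overlapped such a neighbour at their 5′ ends by up to 1 kb. Together these 33 head-to-head members were 42.3% of all members, and among CpG-rich genes the shares were 51.6% of members and 19.8% of others.

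The sequence between 2 divergent genes can be very short. The 5 shortest are printed on the member's strand, from the partner towards the member, with the ETS-type letters CCGGAAG, read on either strand, in capitals.

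Mrpl54 and Apba3, chr10:81266935-81266959, minus strand: acctccaaagccgatctggagggct

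Mrps18c and Helq, chr5:100798599-100798626, plus strand: gtgaCTTCCGGcccgggaagcgcgggaa

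Mrps34 and Eme2, chr17:24895088-24895115, plus strand: gcttttgttcaggacaccggccgcttcc

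Mrps18b and Ppp1r10, chr17:35916390-35916433, minus strand: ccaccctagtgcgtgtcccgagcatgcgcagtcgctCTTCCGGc

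Mrpl57 and Ska3, chr14:57826186-57826233, plus strand: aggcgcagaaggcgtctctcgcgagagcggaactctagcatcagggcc

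Of these 5, Mrps18c and Mrps18b had the ETS-type letters in the gap, and Mrps34, Mrps18b and Mrpl57 had a peak. No summit of the 3 lay in the gap itself. That of Mrps18b was 33 bp inside Mrps18b, in coding sequence, at the core printed above, and those of Mrps34 and Mrpl57 lay 409 and 293 bp upstream, in the coding sequence of Eme2 and an intron of Ska3.

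The neighbours had various roles, which were not classed or counted. As examples chosen by name, Mrps12 lay 172 bp from Sars2, the mitochondrial seryl-tRNA synthetase, and Mrps27 lay 81 bp from Ptcd2, a mitochondrial RNA-binding protein. Mrpl43 overlapped Twnk, the mitochondrial DNA helicase. Mrpl36 overlapped Ndufs6 and Mrpl47 overlapped Ndufb5, both of which encode parts of respiratory complex I. Mrpl49 lay 59 bp from Fau, which encodes a cytosolic ribosomal protein fused to a ubiquitin-like protein, and Mrpl32 lay 75 bp from Psma2, a proteasome subunit. In 1 case both genes were members: Mrpl46 of the large subunit and Mrps11 of the small subunit overlapped by 412 bp. Neither had a peak, and the nearest summit to both, with a signal of 404.5, was 8.15 kb from Mrpl46.

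Whether members with a partner had a peak more or less often depended on the list used. Of the 18 members with a divergent partner 10 had a peak (55.6%), and of the 60 without 22 had one (36.7%). The difference of 18.9 percentage points had a 95% interval from -6.35 to 41.6, which takes in 0. It fell to -6.11 with replicate 1 alone, in which as many of its strongest peaks were kept as the optimal list holds, and to -2.83 when overlapping 5′ ends were also counted. All 18 members with a partner were CpG-rich, and of the 44 CpG-rich members without one 17 had a peak (38.6%). At other CpG-rich genes the shares were 51.1% with and 45.2% without a partner.

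The peaks of head-to-head members were weaker and seldom held the core. Of the 33 head-to-head members 13 had a peak (39.4%), with a median signal of 16.0, and of the other 45 members 19 had one (42.2%), with a median of 274.2. The core was found at 2 of the 13 and at 13 of the 19, a difference of 53.0 percentage points (95% interval 18.1 to 72.7). At other CpG-rich genes with a peak the medians were 45.2 and 61.0, and the core was found at 29.6% and 40.7% of genes. These values are over genes, so a peak near 2 genes counts for both. The 969 genes with a head-to-head neighbour had 531 different peaks, and the 3374 without one had 3331. Above the median signal of the optimal list 2 of the 16 members were head to head, Mrps12 and Mrps18b, and below it 11 of the 16 were. This arrangement was examined after the signals had been seen. Base composition moved with it: the median GC content was 57.4% in head-to-head members and 54.0% in the others, and 97.0% of the former and 66.7% of the latter were CpG-rich. Among CpG-rich members alone, the 13 head-to-head peaks had a median signal of 16.0 with 2 cores, and the 14 others had a median of 307.8 with 10 cores. The ratio of the 2 median signals, 17.1 in the optimal list, was 4.23 with replicate 1 alone and 5.78 with replicate 2 alone. Among peaks at or above the median of the optimal list it was 1.03, with 2 head-to-head members left.

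The 5 strongest peaks at members with a divergent partner covered a wide range. The Mrps12 peak, with its summit 436 bp upstream of Mrps12 and 264 bp inside Sars2, had 399.4. The Mrps18b peak, beside Ppp1r10, a regulatory subunit of protein phosphatase 1, had 237.6 (117.7 and 119.6 in the replicates). Next came Mrpl51 with Ncapd2, a condensin subunit, at 31.1 (10.6 and 19.1). Mrpl41 with Pnpla7, a lysophospholipase, had 21.8 (9.51 and 10.6), and Mrpl49 with Fau had 18.3 with no match in replicate 1. After the first 2 of these pairs, every peak at a member with a divergent partner was thus weaker than the 71.2 of the median optimal peak.

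**Figure D4:**
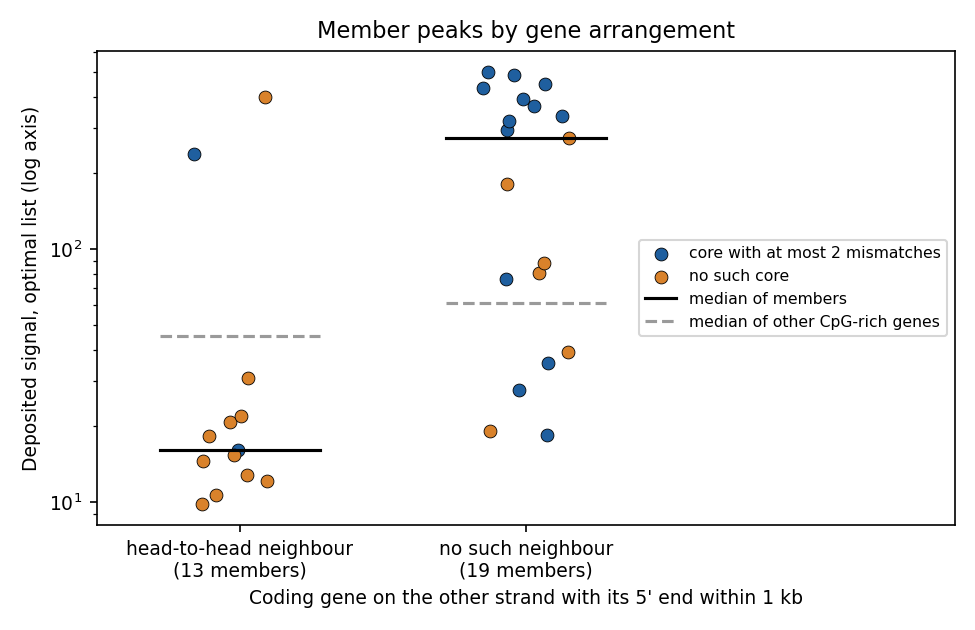
Deposited signal in the optimal list (vertical log axis) of the strongest peak of each member with a head-to-head coding neighbour (13 members) and without one (19 members). Blue points have the core, orange points do not, black lines are the medians of the members (16.0 and 274.2), and dashed grey lines are those of other CpG-rich genes (45.2 and 61.0).

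Peaks were found at genes of both subunits and of both origins, and the intervals of their shares overlapped. By the same rule 29.2% of all coding genes and 46.0% of other CpG-rich genes had a peak. In the large subunit 19 of 51 genes had a peak (37.3%, exact 95% interval 24.1 to 51.9%), with a median signal of 21.8. In the small subunit 13 of 26 had one (exact 95% interval 29.9 to 70.1%), with a median of 180.2. Genes whose product has a bacterial counterpart had a peak in 15 of 46 cases (32.6%, 19.5 to 48.0%), and those whose product is named as specific to mitochondria in 17 of 32 (53.1%, 34.7 to 70.9%). The medians went the other way for origin, at 274.2 with a counterpart and 27.8 without. Head-to-head genes, whose peaks were weaker, were 49.0% of the large and 30.8% of the small subunit. They were 37.0% of the genes with a counterpart and 50% of those without. Whether this arrangement accounts for the medians was not tested. Within the small subunit 8 of the 10 genes specific to mitochondria had a peak (exact 95% interval 44.4 to 97.5%), and 5 of the 16 with a counterpart (11.0 to 58.7%). In the large subunit these counts were 9 of 21 (21.8 to 65.98%) and 10 of 30 (17.3 to 52.8%). The classes follow the names of the proteins, so Mrps18a, without a peak, and Mrps18b, with one, stand among the specific ones although both are paralogs of the S18 family, which has a bacterial counterpart. Mrps36 had none.

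The promoters were also searched for letters bound by other promoter factors. In the 300 bases from 250 before to 50 after the 5′ end, on either strand, the ETS-type letters CCGGAAG were found at 27 of the 78 members (34.6%), beside 18.6% of other CpG-rich genes and 11.0% of all coding genes. The NRF1 letters GCGCANGCG were found at 15 (19.2%), beside 15.7% and 8.17%. The YY1 letters AAGATGGCG were found at 7 (8.97%), beside 3.06% and 1.70%. The ETS letters were present at 12 of the 32 members with a peak (37.5%) and at 15 of the 46 without (32.6%). A match of letters is a description, and binding of these factors was not measured.

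Other genes of mitochondrial translation were counted by the same rule, against 29.2% of all coding genes and 46.0% of other CpG-rich genes. Of 5 mitoribosomal proteins with other names 4 had a peak (80.0%, exact 95% interval 28.4 to 99.5%). The strongest were Aurkaip1 at 451.1, Dap3 at 95.7 and Gadd45gip1 at 95.2. Of 11 translation factors 7 had one (63.6%, 30.8 to 89.1%), led by the elongation factors Tsfm at 473.3, Gfm1 at 364.7 and Tufm at 116.5. Of 17 aminoacyl-tRNA synthetases 12 had one (70.6%, 44.0 to 89.7%). They were led by Sars2 at 399.4, whose peak is that of Mrps12, Aars2 at 348.7 and Yars2 at 281.6. Of 21 assembly and rRNA factors 6 had one (28.6%, 11.3 to 52.2%). The methyltransferases Mrm1 at 420.6, Mrm2 at 337.6 and Nsun4 at 128.6 led these. The intervals of all 4 lists took in the 46.0% of other CpG-rich genes. For scale, 13 of 34 Nduf genes (38.2%), most of which encode complex I, and 45 of 79 cytosolic ribosomal protein genes (57.0%) had a peak by the same rule.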

How the data were processed

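The authors deposited 5 peak lists in narrowPeak layout on mm10, per the labels. Each replicate list and the pooled list hold 300000 peaks. Per the text deposited beside the samples, the optimal and conservative lists came out of an irreproducible discovery rate (IDR) step, which keeps peaks of repeated rank. Its input was the other 3 lists and 1 file of unnamed kind. The signal column is the deposited signal of each peak, on a scale that is not stated. The aligner, peak caller and thresholds, not given in the sources used here, set which weak peaks are listed. Depth is unknown. The summit is the peak start plus the deposited offset.

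Coordinates were joined to GRCm38 (mm10) and GENCODE M21 with Python 3.11.15, pandas 2.3.3, SciPy 1.17.1 and pysam 0.24.0. A gene's strongest peak within 1 kb of its 5′ end was used, and peaks were matched between lists by summits within 100 bp. Shares carry exact Clopper-Pearson intervals (95%), and differences carry Newcombe's. With 1 group there was no test. The scripts were checked on simulated data. The members, lists and alternatives were chosen with earlier results of these data known.

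Origin and subunit follow the names of the proteins. The 4 lists of other genes were written by hand from general knowledge: mitoribosomal proteins with other names, translation factors, aminoacyl-tRNA synthetases, and assembly and rRNA factors. Signals were given for the 10 strongest and 5 weakest member peaks and the 3 members on each side of the 1 kb limit. The same held for up to 6 weak peaks missing from the conservative list or a replicate and the 5 strongest with a divergent partner. Members with a peak but no CpG-rich promoter, Mrpl23, and the 3 strongest of each list were also included. Coordinates and replicate values were given for only some of these. Other genes were named as examples after their values were seen.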

Additional observations from a re-analysis of the deposited data

How the results depend on the processing

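No paired analysis was possible because the study has 1 group. With the conservative list 39.7% of members had a peak. Of the 62 CpG-rich members 26 had one, beside 4101 of the 9449 other CpG-rich genes. Of the members without a head-to-head neighbour, 21 had a peak in the conservative list and 19 in the optimal list. Some members thus had a peak in the conservative list only. Peaks at or above the median signal of the optimal list gave 20.5% of members, and 13 of the 62 CpG-rich ones beside 1904 of those 9449. A 250 bp limit gave 26.9% of members, 30.6% of CpG-rich members, 26.9% of other CpG-rich genes and 16.5% of all protein-coding genes. A 5 kb limit gave 65.4%, 64.5%, 65.5% and 48.9%. Each replicate alone gave 43.6 to 46.2% of members. Of the 62 CpG-rich members, replicate 1 gave 28 and replicate 2 gave 29, beside 4387 and 4380 of the 9449. The difference between CpG-rich members and other CpG-rich genes turned positive with the stronger peaks (0.818 points), a 250 bp limit (3.72), a stricter CpG-rich class (9.77) and genes with a divergent partner only (4.50), and ran from -1.27 to 0.42 with 1 replicate. Its sign is therefore not determined. With overlapping 5′ ends the share of members with a neighbour was 42.3%. The partner difference turned to -12.2 points with the stronger peaks, to -2.83 with overlapping 5′ ends, and ran from -6.11 to 5 with 1 replicate. The median signal was 76.2 in the conservative list, 328.4 with the stronger peaks, 76.2 at 250 bp, 80.4 at 5 kb, 78.5 at any annotated start, and 18.2 to 23.9 in the replicates, on their own scales. The core share was 68.8% with the stronger peaks, 12.5% at 1 mismatch and 71.9% at 3. The next results and their alternatives were chosen after seeing the data. The core share of members without a head-to-head neighbour exceeded that of members with one under all 11 alternatives, by 21.1 to 61.1 points (26.0 to 44.2 with 1 replicate), but the interval took in 0 with the stronger peaks (-26.8 to 65.3), replicate 2 alone (-6.82 to 51.0) and at most 1 mismatch (-4.98 to 43.3). The ratio of their median signals was 8.47 in the conservative list, 1.03 with the stronger peaks, 18.8 at 250 bp, 4.47 at 5 kb, 15.0 at any annotated start and 4.23 to 5.78 with 1 replicate. The cause of these shifts was not tested. Depth is unknown, so an absent peak cannot be told from an undetected one.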
